A study of Drosophila melanogaster with 8 samples.

Results

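The temporal series of Drosophila neuroblasts was followed through 9 genes, hb, Kr, nub, pdm2, cas, grh, svp, sqz and nab, taken by symbol from the 17321 genes of each deposited table. All 9 symbols were present in both tables and matched a current name in the reference (hb FBgn0001180, Kr FBgn0001325, nub FBgn0085424, pdm2 FBgn0004394, cas FBgn0004878, grh FBgn0259211, svp FBgn0003651, sqz FBgn0010768, nab FBgn0259986). The rule for members used their names and no measured value, although earlier results of these data were known when the set was chosen. RNA of whole embryos of stages 8 to 16 was sequenced in 8 libraries, 2 for each of 4 groups, and the labels call these biological replicates. All embryos carried da-Gal4, in which the daughterless promoter drives Gal4 throughout the embryo. In experiment 1, Quad embryos carried da-Gal4 with UAS-ase, UAS-SoxN, UAS-wor and UAS-Kr, and Ctrl embryos carried da-Gal4 over an OregonR chromosome set. In experiment 2, QuadD embryos carried da-Gal4 with UAS-ase-Vp16, UAS-SoxN-EnR, UAS-wor-EnR and wild type UAS-Kr, and Ctrl-D embryos again carried da-Gal4 over OregonR. Vp16 is a viral activation domain and EnR the repressor domain of Engrailed. Strain background was not the same in misexpression and control embryos and cannot be told apart from the transgenes.

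Embryonic neuroblasts, the neural stem cells of the fly, express a sequence of transcription factors as they divide, and each factor marks the neurons born in its window. In the ventral nerve cord the order is hb, Kr, the POU genes nub and pdm2, cas and then grh. The nuclear receptor gene svp closes the hb window, and sqz and nab act after cas to subdivide the late window. Most of these genes have other uses in the embryo. The genes hb and Kr are gap genes of the early segment pattern, grh directs the barrier of the epidermis, and svp acts in heart and fat body. The study asked how neural lineages tie their progression to their proliferation.

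Levels are the deposited RPKM (reads scaled to transcript length and to library size), a scale on which levels of different genes can be compared per length. Group levels are mean ± SD with n = 2. With 2 libraries in a group, groups can fail to overlap by chance, and the share of all genes that did so was not counted. Each effect is a difference of log2(RPKM + 1) with its SE, a scale that understates how far genes of low level moved, and adjusted p-values are from limma with Benjamini-Hochberg adjustment over all genes tested. A gene is said to rise or fall where the adjusted p was under 0.05. The deposited raw counts summed to between 2765722 and 6740835 per library and were incomplete for many genes. Among the 9 members, the counts of sqz alone were proportional to its RPKM, those of hb and Kr were 0 in every library, and those of the other 6 held part of the reads. Counting error can therefore be judged for sqz, with 309 to 1023 reads per library, and is not known for the other members. Whole embryos hold many tissues, and fewer cells of a type cannot be told apart from less RNA per cell.

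In driver-only embryos grh, cas and pdm2 were the most abundant members. In Ctrl, grh stood first at 83.8 ± 2.36 RPKM, followed by cas at 68.0 ± 16.2 RPKM and pdm2 at 63.3 ± 1.12 RPKM. The ranges of cas and pdm2 overlapped. Kr at 40.6 ± 7.73 RPKM and hb at 34.0 ± 3.83 RPKM came next and overlapped each other, as did nub at 30.2 ± 1.54 RPKM and svp at 29.8 ± 0.710 RPKM. The late factors sqz (18.8 ± 0.326 RPKM) and nab (7.82 ± 1.29 RPKM) were lowest and overlapped no neighbour in this order. In Ctrl-D the order began with pdm2 at 93.6 ± 12.3 RPKM, ahead of grh at 80.5 ± 1.21 RPKM and cas at 73.7 ± 3.35 RPKM, and the remaining 6 kept their order. There hb and nub were the only neighbours that overlapped. Both misexpression groups had cas first and pdm2 second, with grh in place 6 in Quad and place 7 in QuadD. In Quad, cas and pdm2 overlapped, as did Kr and hb, and grh and svp. In QuadD no neighbours overlapped.

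**Figure D1:**
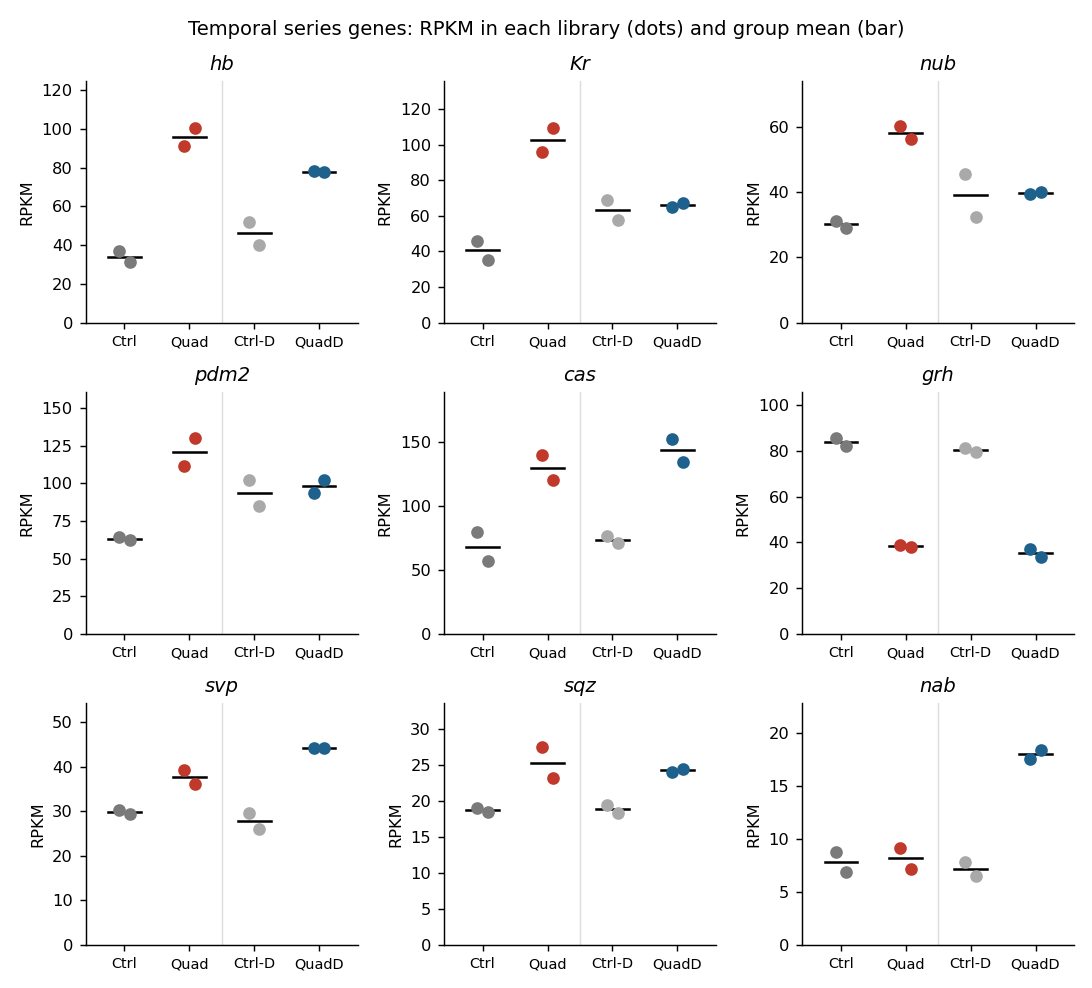
RPKM of the 9 temporal series genes (y axes, each starting at 0) in the Ctrl, Quad, Ctrl-D and QuadD groups (x axes), with each library as a dot and the group mean as a bar. The dots of hb, cas, grh, svp and sqz separate misexpression from control in both experiments, those of Kr, nub and pdm2 in experiment 1, and those of nab in experiment 2. The share of all genes that separate in this way was not counted.

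In Quad, the members from hb to cas in the series rose, Kr with its transgene in the total, and grh fell. Of the 9 members, all of which were tested, 5 rose (hb, Kr, nub, pdm2 and cas), 1 fell (grh) and 3 did not pass (svp, sqz and nab). Over all 10436 genes tested, 24.9% rose and 22.6% fell, 47.5% in all, so a large share of the transcriptome moved as well. The median log2 fold change was 0.92 over the members and 0.053 over all genes tested. In QuadD again 5 rose (hb, cas, svp, sqz and nab), 1 fell (grh) and 3 did not pass (Kr, nub and pdm2). Of 10207 genes tested there, 27.4% rose and 27.7% fell, 55.0% in all. The median was 0.35 over the members and 0.034 over all genes tested. The 6 of 9 members called in each experiment stand little above these shares, and the count by itself is no result about the members.

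**Figure D2:**
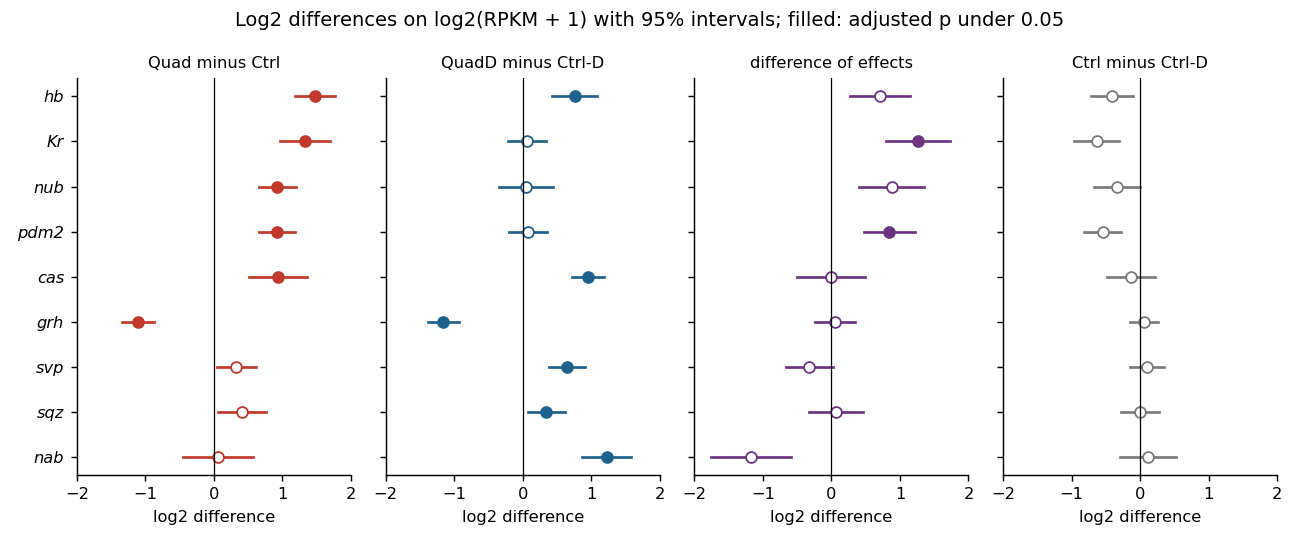
Log2 differences of the 9 genes (x axes, log2(RPKM + 1) scale) with 95% intervals for Quad minus Ctrl, QuadD minus Ctrl-D, the difference of both effects and Ctrl minus Ctrl-D. Filled points had an adjusted p under 0.05: 6 genes in each of the first 2 panels, Kr and pdm2 in the third and none in the fourth.

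The zinc finger gene hb, the first factor of the series, was at 36.7 and 31.3 RPKM in Ctrl and at 91.3 and 100.4 RPKM in Quad. Both Quad libraries lay far above both Ctrl libraries. The rise was 1.47 ± 0.12 (adjusted p = 0.000453), 2.82-fold in RPKM, and 163 other called genes rose by more. In experiment 2, hb was at 52.0 and 40.0 RPKM in Ctrl-D and at 78.1 and 77.6 RPKM in QuadD. The groups did not overlap here either, and the rise was 0.76 ± 0.13 (adjusted p = 0.00499). This call was lost when genes of low level were not filtered out (adjusted p = 0.0823). No UAS-hb was among the transgenes of either group.

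Kr follows hb in neuroblasts and is also a transgene, so its gene total adds the embryo's own RNA to that of UAS-Kr. It was at 46.1 and 35.2 RPKM in Ctrl and at 96.1 and 109 RPKM in Quad, groups that did not overlap (1.33 ± 0.15, adjusted p = 0.00123). In Ctrl-D it was at 69.2 and 57.5 RPKM, and in QuadD, whose labels also name UAS-Kr, at 64.8 and 67.4 RPKM. The QuadD libraries lay between the Ctrl-D libraries. The difference of 0.066 had a 95% interval from -0.21 to 0.34 (adjusted p = 0.637). Of the other transgene totals, wor rose by 2.00 ± 0.10 in Quad and 2.08 ± 0.08 in QuadD, and ase by 1.77 ± 0.12 and 1.60 ± 0.08. The total of SoxN shifted less, by 0.35 ± 0.12 in Quad, which did not pass (adjusted p = 0.0536), and by 0.41 ± 0.10 in QuadD (adjusted p = 0.0162). Within libraries the ratio of Kr to hb was 1.26 and 1.12 in Ctrl, 1.05 and 1.09 in Quad, and 1.33 and 1.44 in Ctrl-D. It was below 1 in QuadD alone, at 0.829 and 0.868.

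The genes nub and pdm2 encode closely related POU domain factors that share the window after Kr. In the protein-coding gene order of RefSeq's Release 6 annotation, only Ref2 lies between them. In experiment 1, nub went from 31.3 and 29.1 RPKM in Ctrl to 60.1 and 56.2 RPKM in Quad (0.92 ± 0.11, adjusted p = 0.00139). Its partner pdm2 went from 64.1 and 62.5 RPKM to 111 and 131 RPKM (0.92 ± 0.11, adjusted p = 0.00139). For both genes every Quad library was above every Ctrl library, and the sizes of the rises were close to each other, with 95% intervals of 0.66 to 1.19 for nub and 0.65 to 1.18 for pdm2. In experiment 2, nub was at 45.4 and 32.5 RPKM in Ctrl-D and at 39.5 and 39.9 RPKM in QuadD (0.047, interval -0.35 to 0.44, adjusted p = 0.819). There pdm2 was at 102 and 84.9 RPKM in Ctrl-D and at 93.8 and 102 RPKM in QuadD (0.072, interval -0.21 to 0.35, adjusted p = 0.615). Both genes had overlapping groups in experiment 2. The ratio of pdm2 to nub was between 1.85 and 2.61 in all 8 libraries, so pdm2 was the more abundant of the pair throughout.

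The zinc finger gene cas, which ends the POU window, rose by nearly the same amount in both experiments. It was at 79.5 and 56.6 RPKM in Ctrl and at 139.6 and 120.4 RPKM in Quad (0.94 ± 0.17, adjusted p = 0.00639). In experiment 2 it was at 76.1 and 71.4 RPKM in Ctrl-D and at 153 and 134 RPKM in QuadD (0.95 ± 0.10, adjusted p = 0.000707). The groups did not overlap in either experiment, and the spread was widest in Ctrl. Without a filter on low genes the call in Quad was lost (adjusted p = 0.104). The difference between both effects was -0.0092, with a 95% interval from -0.51 to 0.49.

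The gene grh, a CP2 family factor and the last of the series, was the one member that fell, and it fell in both experiments. It was at 85.5 and 82.2 RPKM in Ctrl and at 38.8 and 38.0 RPKM in Quad (-1.11 ± 0.10, adjusted p = 0.000559). In Ctrl-D it was at 81.3 and 79.6 RPKM and in QuadD at 37.3 and 33.7 RPKM (-1.16 ± 0.09, adjusted p = 0.000326). Its levels were also close across experiments: both controls lay between 79.6 and 85.5 RPKM and both misexpression groups between 33.7 and 38.8 RPKM. The difference between both effects was 0.055, with an interval from -0.23 to 0.34. In all 13 settings tried for Quad and all 14 for QuadD the call was kept.

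RNA of marker genes of epidermis and trachea, where grh is also expressed, was lower in the same libraries. All 13 epidermis and cuticle markers tested fell in Quad (median log2 fold change -3.17) and in QuadD (-3.58). The summed level of the 14 markers went from 1512 to 2006 RPKM in Ctrl to between 119 and 146 RPKM in Quad. In experiment 2 it went from 1008 to 1282 RPKM in Ctrl-D to between 56.8 and 66.7 RPKM in QuadD. The apical matrix gene neo dropped by 3.49 ± 0.11 in Quad, and the chitin deacetylase gene serp fell by 5.22 ± 0.19 in QuadD. All 4 trachea markers fell in both (medians -0.96 and -1.25), among them the tracheal fate gene trh, at -0.96 ± 0.12 and -1.07 ± 0.11. No epidermis or trachea marker was under 1 RPKM in all libraries. The part of these tissues in the fall of grh was not tested.

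Neuroblast markers were higher where hb and cas were. Of 9 markers 8 rose in Quad (median 1.25) and 8 in QuadD (median 1.37). The exceptions, esg in Quad (-0.15) and l(1)sc in QuadD (-0.36), did not pass. The anchor gene mira rose by 1.66 ± 0.08 in Quad, and insc, which orients the neuroblast spindle, by 1.71 ± 0.09 in QuadD. The summed level of the 9 markers went from between 579.7 and 627 RPKM in Ctrl to between 1382 and 1384 RPKM in Quad, and from between 698 and 795 RPKM in Ctrl-D to between 1783 and 1850 RPKM in QuadD. None of the 9 was under 1 RPKM in all libraries. Of 10 neuron markers tested, 2 rose in Quad and 10 in QuadD. The neuron sum differed between the Quad libraries, at 609 RPKM in replicate 1 and 364 RPKM in replicate 2, and so did the muscle sum, at 2419 and 1350 RPKM. Of 9 muscle markers 2 fell in Quad, and 7 fell and 1 rose in QuadD. Glia markers were mixed, with 5 of 9 rising and 2 falling in Quad, and 3 of 8 rising and 3 falling in QuadD. The part of neuroblast number in the levels of the members was not tested.

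Of the genes that subdivide the windows, svp, sqz and nab all rose in QuadD, as did 27.4% of all genes tested. None of svp, sqz and nab passed in Quad, and the difference between both effects passed for none of them either. The nuclear receptor gene svp was at 30.3 and 29.3 RPKM in Ctrl and at 39.4 and 36.2 RPKM in Quad, without overlap (0.33 ± 0.12, adjusted p = 0.0572, not under the threshold). The call was gained with equal library medians (0.37), with all 8 libraries in the fit (0.33) and without Quad replicate 2 (0.39). In experiment 2 it rose from 29.7 and 25.9 RPKM to 44.2 and 44.3 RPKM (0.65 ± 0.11, adjusted p = 0.00381). Among markers of other tissues that use svp, 6 of 6 tested in hemocyte and fat body fell in Quad and 5 of 6 in QuadD. Of 5 heart markers 3 fell in each experiment, and tin (0.91) and Hand (0.76) rose in QuadD. Of 7 gut, Malpighian tubule and amnioserosa markers, 6 fell in Quad (median -0.77), and 4 fell and 1 rose in QuadD (median -0.37). The part of these tissues in the levels of svp, and in those of Kr, which the Malpighian tubules and amnioserosa also use, was not tested.

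The zinc finger gene sqz was at 19.0 and 18.6 RPKM in Ctrl and at 27.6 and 23.2 RPKM in Quad, again without overlap (0.41 ± 0.14, adjusted p = 0.0571). It passed in 6 of the other settings, among them a filter at 5 RPKM (adjusted p = 0.0439) and voom on its counts (adjusted p = 0.0464). In experiment 2 it went from 19.4 and 18.3 RPKM to 24.1 and 24.5 RPKM (0.35 ± 0.11, adjusted p = 0.0374). This call was lost with the replicate number as a block (adjusted p = 0.0716), without Ctrl-D replicate 2 (0.31), without QuadD replicate 1 (0.36) and without QuadD replicate 2 (0.33). The shift in sqz was thus of about the same size in both experiments and close to the threshold in both.

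The gene nab encodes a cofactor that binds Sqz and was the least abundant member in all 4 groups. It was at 8.73 and 6.90 RPKM in Ctrl and at 9.16 and 7.15 RPKM in Quad, overlapping groups (0.054, interval -0.46 to 0.56, adjusted p = 0.849). In experiment 2 it went from 7.78 and 6.50 RPKM to 17.5 and 18.4 RPKM, groups that did not overlap (1.23 ± 0.15, adjusted p = 0.00124). This was a 2.52-fold change in RPKM, and 258 other called genes rose by more. The call was kept in the other settings tried. The ratio of nab to sqz was between 0.308 and 0.459 in the 6 libraries outside QuadD and 0.729 and 0.751 in QuadD.

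Whether the effects of Quad and QuadD differed was tested in 1 fit of all 8 libraries. Of 10775 genes 2.70% passed, 1.76% with the larger value in Quad and 0.937% with the larger value in QuadD. Among the members Kr (1.26 ± 0.20, adjusted p = 0.0138) and pdm2 (0.85 ± 0.17, adjusted p = 0.0337) passed. The pdm2 call was lost in 9 of 17 other settings, including without Ctrl replicate 1 (0.86), Ctrl replicate 2 (0.83), Quad replicate 2 (0.73), Ctrl-D replicate 1 (0.71), QuadD replicate 1 (0.78) and QuadD replicate 2 (0.91). With the replicate block its adjusted p was 0.0802. The Kr call was lost in 5, namely with no filter (adjusted p = 0.123) and without Ctrl replicate 2 (1.07), Ctrl-D replicate 1 (1.13), QuadD replicate 1 (1.23) and QuadD replicate 2 (1.29). The difference was -1.17 ± 0.26 for nab (adjusted p = 0.0516), 0.88 ± 0.21 for nub (adjusted p = 0.0681) and 0.71 ± 0.19 for hb (adjusted p = 0.105), none of which passed. The value for nab passed in 4 other settings, among them without Quad replicate 1 (-1.33), and those for hb (0.90) and nub (1.11) passed without Ctrl-D replicate 2. It did not pass for svp either (-0.32, interval -0.67 to 0.019) or for sqz (0.064, interval -0.33 to 0.46).

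Part of the difference in the early genes lay between the controls, which share a genotype in the labels. For these values levels are set across the 2 tables, and experiment, lane and collection cannot be told apart. Ctrl lay below Ctrl-D by 0.63 in Kr, 0.55 in pdm2, 0.42 in hb and 0.34 in nub. Libraries overlapped in none of the 4, but the share of all genes without overlap was not counted, so this is no result about them. None of these passed (adjusted p = 0.0642, 0.0545, 0.112 and 0.189), while 1.23% of all 10775 genes did, 0.752% higher and 0.483% lower in Ctrl. The same 4 genes had an unadjusted p under 0.05. The share of all genes under that p was not counted, so this is no result about the members. In fits without Quad replicate 1 or without Quad replicate 2, Kr (-0.63) and pdm2 (-0.55) passed. Between the misexpression groups, Quad lay above QuadD by 0.63 in Kr, 0.30 in pdm2, 0.30 in hb and 0.54 in nub, a description with no test. For nab the controls differed by 0.11 and the misexpression groups by -1.06, so that its difference of effects lay between Quad and QuadD. The other members differed between controls by 0.13 or less in either direction, and among them the libraries of grh did not overlap either. Median differences of tissue markers (Ctrl minus Ctrl-D) were 0.58 for epidermis, 0.61 for muscle, 0.47 for neurons and -0.20 for neuroblasts. Few markers passed: 1 of 13 tested for epidermis, 1 of 9 for neuroblasts, 0 of 9 for muscle and 0 of 10 for neurons. The neuroblast gene l(1)sc was lower in Ctrl by 0.96 ± 0.17 (adjusted p = 0.0380) and the epidermal gene ple higher by 2.12 ± 0.38 (adjusted p = 0.0433). Summed muscle markers were at 2321 to 3037 RPKM in Ctrl and at 1617 to 1856 RPKM in Ctrl-D, and the epidermis sums given above did not overlap between the controls either. The part of these tissues in the differences of the early genes was not tested.

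**Figure D3:**
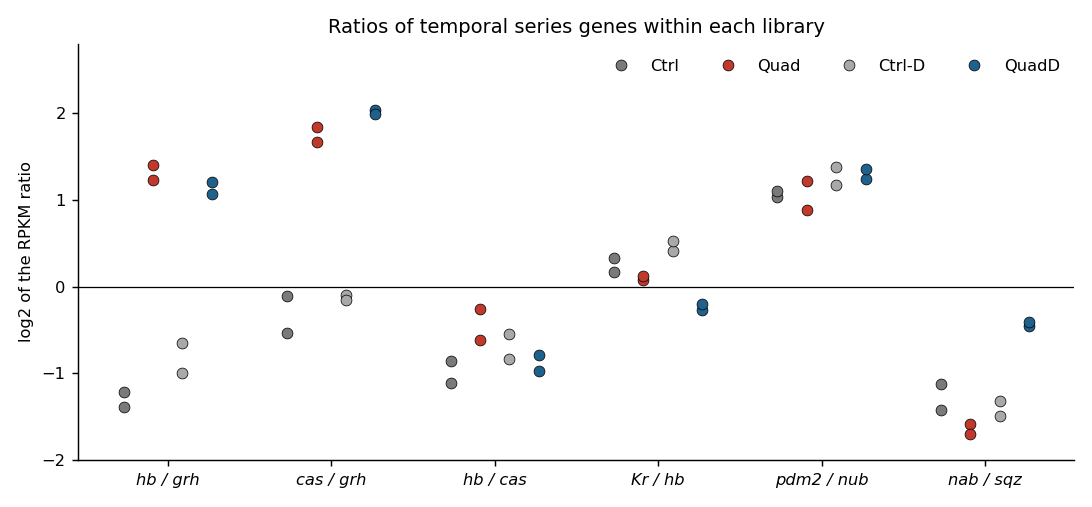
Log2 of the RPKM ratio of 6 pairs of temporal series genes (y axis) within each of the 8 libraries, coloured by group. The ratios hb/grh and cas/grh are below 0 in the 4 control libraries and above 1 in the 4 misexpression libraries, nab/sqz is highest in QuadD, and pdm2/nub stays between 0.89 and 1.39. Levels are those of whole embryos, and grh is also expressed in epidermis and trachea.

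Ratios within a library put the early and late ends of the series side by side without reference to another library. The ratio of hb to grh was 0.429 and 0.381 in Ctrl and 0.639 and 0.502 in Ctrl-D. It was 2.35 and 2.64 in Quad and 2.10 and 2.30 in QuadD. Driver-only libraries thus held more grh than hb per length, and all 4 misexpression libraries the reverse. The ratio of cas to grh went from 0.929 and 0.688 in Ctrl to 3.59 and 3.17 in Quad, and from 0.935 and 0.896 in Ctrl-D to 4.10 and 3.98 in QuadD. Levels are those of whole embryos, and grh is also expressed in epidermis and trachea, whose markers fell in both experiments. The part of these tissues in the ratios to grh was not tested. The ratio of hb to cas was between 0.462 and 0.834 in all libraries. It was higher in both Quad libraries than in both Ctrl libraries, and the groups overlapped in experiment 2.

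Factors of other temporal series, from the optic lobe, larval brain and intermediate progenitors, were mixed. Of 21 such genes 19 were tested in each experiment, and mamo and Eip93F were under 1 RPKM in every library. In Quad 7 rose and 3 fell, with a median of 0.43. The eye and optic lobe factor ey rose from 9.57 ± 0.636 to 28.7 ± 0.337 RPKM (1.49 ± 0.14, adjusted p = 0.000731), and the pipsqueak-domain gene danr rose by 1.10 ± 0.12. The homeobox genes B-H1 and B-H2 fell by 1.28 ± 0.18 and 1.58 ± 0.18. In QuadD 5 rose and 6 fell, with a median of 0.039. There danr rose by 0.85 ± 0.12 and chinmo, which marks early-born neurons, by 0.83 ± 0.12, whereas the Sox gene D fell by 0.97 ± 0.10 and the ecdysone receptor gene EcR by 0.68 ± 0.09. In Quad D had risen, by 0.56 ± 0.13 (adjusted p = 0.0136), and it was lower in Ctrl than in Ctrl-D by 0.76 ± 0.13 (adjusted p = 0.0315). The gene ey was at 8.17 against 7.95 RPKM in experiment 2 (adjusted p = 0.850).

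Genes known as outputs of lineages in which the series was worked out also moved. Of 17 listed genes 16 were tested, and the neuropeptide gene FMRFa was under 1 RPKM in every library. In Quad 5 rose and 2 fell (median 0.40), and in QuadD 10 rose and 1 fell (median 0.52). The lineage factor eg rose from 2.60 ± 0.402 to 29.2 ± 1.11 RPKM in Quad (3.07 ± 0.18, adjusted p = 0.000148) and from 2.49 ± 0.218 to 6.34 ± 0.372 RPKM in QuadD (1.07 ± 0.17, adjusted p = 0.00323). The gene kn, also called collier, which acts upstream of Apterous neurons, rose in Quad by 0.70 ± 0.14 and in QuadD by 0.50 ± 0.12. The peptidergic factor dimm rose in QuadD, from 0.555 ± 0.0948 to 2.55 ± 0.497 RPKM (1.19 ± 0.20). The LIM homeobox gene tup moved in opposite directions, falling by 0.50 ± 0.11 in Quad and rising by 0.54 ± 0.08 in QuadD.

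**Figure D4:**
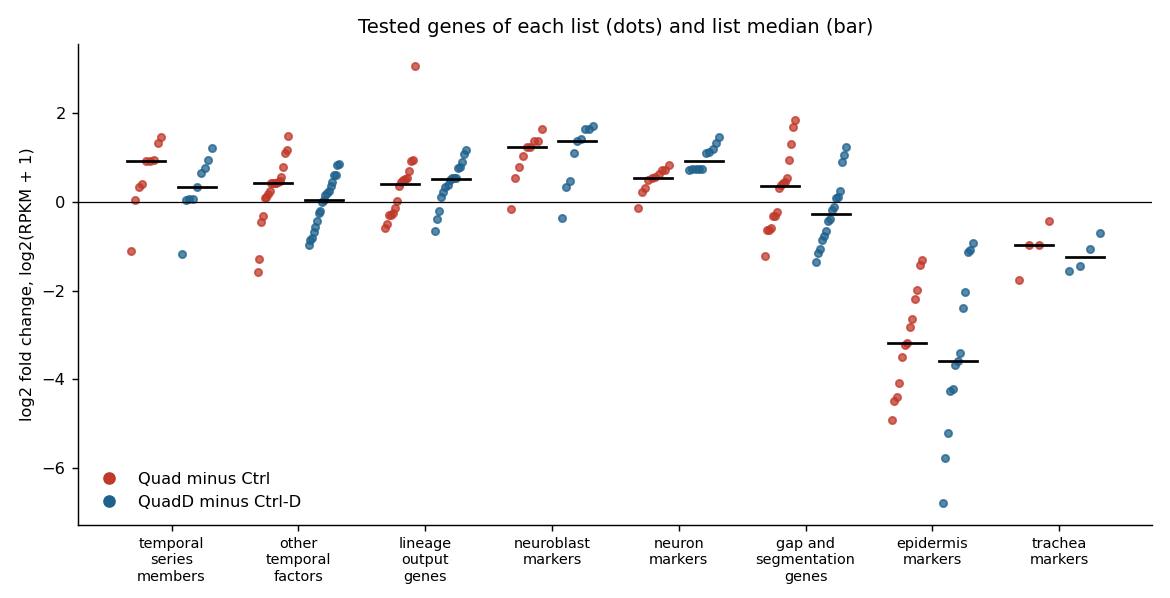
Log2 fold changes (y axis, log2(RPKM + 1) scale) of the tested genes of 8 lists in Quad minus Ctrl and QuadD minus Ctrl-D, with each gene as a dot and the list median as a bar. Neuroblast markers have medians of 1.25 and 1.37 and epidermis markers of -3.17 and -3.58, while the temporal series members spread to both sides of 0.

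Relatives of the members by protein family were set beside them. Of 9 relatives 1 rose and 4 fell in Quad (median -0.16), and of 8 tested in QuadD 2 rose and 4 fell (median -0.37). The POU gene vvl, active in trachea and brain, fell from 141 ± 3.70 to 47.2 ± 4.27 RPKM in Quad (-1.56 ± 0.10) and from 109 ± 0.303 to 56.4 ± 0.950 RPKM in QuadD (-0.93 ± 0.08). The CP2 gene gem, the closest relative of grh in the list, fell by 0.73 ± 0.11 and by 0.94 ± 0.10. The nuclear receptor genes Hr78 and Hnf4, relatives of svp, fell in both, Hr78 by 1.46 ± 0.15 and 1.44 ± 0.12.

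The genes hb and Kr are also gap genes, so other segmentation genes were read beside them. In Quad 5 of 16 gap and segmentation genes rose and 4 fell (median 0.35), and in QuadD 3 rose and 7 fell (median -0.28). In Quad, ftz rose by 1.70 ± 0.18 and hkb by 1.31 ± 0.14, and h fell by 1.23 ± 0.11. In QuadD, ftz rose by 1.07 ± 0.13, and the gap genes kni and knrl fell by 1.36 ± 0.09 and 1.16 ± 0.15. Both kni and knrl fell in Quad as well, kni by 0.63 ± 0.17 (adjusted p = 0.0260) and knrl by 0.64 ± 0.19 (adjusted p = 0.0350). Some of these genes, such as eve, run and ftz, are also used in neurons, and the list shares eve, run, tll, slp1 and opa with the lists above. Between the controls the median of the list was -0.38 (Ctrl minus Ctrl-D), with ftz called lower in Ctrl (-0.81, adjusted p = 0.04996), and its summed level was 377 to 382 RPKM in Ctrl and 474 to 516 RPKM in Ctrl-D. The part of embryo age in the levels of hb and Kr was not tested.

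Likeness across the 8 libraries was measured as the root mean square difference of log2(RPKM + 1) profiles, each less its own mean, over 5600 named genes. The 8 libraries share 4 groups and 2 lanes, so close profiles are common. For hb, whose own profile had a root mean square of 0.60, the nearest were the securin gene pim (0.071) and the origin recognition gene Orc1 (0.11). For pdm2 (0.34) they were run (0.063) and Uba4 (0.11), and for nub (0.35) apt (0.085) and tej (0.086). For cas (0.50) they were pps (0.086) and mud (0.12), and for grh (0.57) GlcAT-P (0.072) and Mcr (0.077). For nab (0.51) they were the muscle identity genes nau (0.14) and slou (0.16). For svp (0.27) they were vn (0.051) and Src64B (0.057), and for sqz (0.20) Dscam4 (0.031) and CASK (0.043). For Kr (0.49) they were a histone H2B copy (0.13), which has near-identical copies and is therefore uncertain, and ind (0.15). Within the series, nub and pdm2 were nearest to each other (0.15), hb and cas to each other (0.24), and svp and sqz to each other (0.13). The nearest member was pdm2 for Kr (0.18), svp for nab (0.32) and sqz for grh (0.76). For grh this distance was larger than the root mean square of its own profile (0.57), so no member was close to it.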

How the data were processed

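Per the labels' protocols, 50 mg of frozen embryos per sample gave RNA that was sequenced as single reads of 50 bases, with 1 lane for each of the 2 experiments. Per the file headers, the authors deposited linear RPKM, the log2 of those RPKM values, and raw read counts for each library. For alignment, counting, strand use and genome build, nothing was found: these were not given in the sources used here. Coordinates are therefore left out. The lowest deposited RPKM, 0.002 in experiment 1 and 0.003 in experiment 2, is a floor. Raw counts were used only for the 5067 genes whose counts were proportional to RPKM within 1% or 1 read.

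From the RPKM, log2(RPKM + 1) was tested with limma 3.58.1 (R 4.3.3, trended prior) keeping genes that reached 1 RPKM in 2 or more of the libraries fitted, with Benjamini-Hochberg adjustment and a threshold of 0.05. Each effect used the 4 libraries of its experiment, and the other comparisons used all 8. The test was also run on simulated data, where it missed part of the true changes, so a gene that did not pass is not shown to be unchanged. The members and the 13 lists (139 entries, 4 of them matched to the files' spelling by hand) were chosen with earlier results of these data known. Genes were named by a rule: all members, the transgene genes, up to 4 genes with the smallest p per list and effect, and the 2 genes nearest to each member by profile. Alternatives were other pseudocounts (0.1 and 5 RPKM), filters, scalings and priors, voom on counts, a replicate block and leaving out each library. No sequences were used here.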

Additional observations from a re-analysis of the deposited data

Results flagged for a closer look

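The effect on Kr differed between Quad and QuadD by 1.26 (adjusted p = 0.0138, limma), with Kr above both controls in 2 of 2 Quad libraries and between the controls in 2 of 2 QuadD libraries. The effect on pdm2 differed by 0.85 (adjusted p = 0.0337), with pdm2 above both controls in 2 of 2 Quad libraries and overlapping the controls in QuadD. Both were picked out because the difference of the 2 effects passed its own test. Neither passed in limma without a filter on low genes (adjusted p = 0.123 for Kr and 0.155 for pdm2). Between the controls alone (Ctrl minus Ctrl-D), Kr differed by -0.63 and pdm2 by -0.55. The total of Kr includes UAS-Kr in both Quad and QuadD.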

How the results depend on the processing

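Leaving out 1 library at a time gave 2444 to 5325 genes called in Quad (4956 with all), 3293 to 5128 in QuadD (5618), 126 to 495 for the difference of effects (291) and 4 to 983 between the controls (133), and 0 to 4 and 0 to 2 members called in the last 2 comparisons (2 and 0). A lone library was then assumed to vary like the rest. Counts moved by over 1.5 times without either Ctrl library in Quad, without either QuadD library in QuadD, without any library but Quad replicate 2 in the difference, and without any but Ctrl replicate 1 between controls. Values that crossed 0 on leaving out a library were not called: in Quad nab (-0.10 to 0.21); in QuadD Kr (-0.066 to 0.20), nub (-0.19 to 0.28) and pdm2 (-0.062 to 0.20); in the difference cas (-0.25 to 0.23), grh (-0.016 to 0.12) and sqz (-0.055 to 0.18); between controls nab (-0.038 to 0.26), cas (-0.38 to 0.11) and sqz (-0.048 to 0.033). Without a filter 2696, 3140, 186 and 78 genes were called in the 4 comparisons and 0 members in the difference. Voom on counts, for fewer genes, called 2104, 2262, 102 and 32, and between controls gave sqz at 0.0008. One prior variance called 30 genes between controls and 1 member in the difference. The replicate block called 174 genes and 1 member in the difference and 11 genes between controls, with sqz at 0.047 there, and ended the sqz call in QuadD. The numbers were not taken as pairs, since deviations of same-numbered libraries correlated at 0.011 in experiment 1 and -0.159 in experiment 2. Crossed numbers, added after seeing the data, called 6075 genes in QuadD, 344 in the difference and 32 between controls. Quantile normalization gave nab at -0.0012 between controls and moved the median of all genes in QuadD by 0.10. The causes were not tested. Of the 118 member values under other settings in Quad 106 kept direction and call, as did 119 of 127 in QuadD. Voom gave no value for 8 members, whose counts were incomplete.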

Other observations

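Set against the summed RPKM of the 9 neuroblast markers, a scale chosen after the data were seen and with no test, the members looked different. By this measure hb was at 5.39% to 5.85% of the marker sum in Ctrl and 6.60% to 7.26% in Quad, but at 5.73% to 6.53% in Ctrl-D and 4.19% to 4.38% in QuadD. Kr was at 6.06% to 7.35% in Ctrl and 6.95% to 7.92% in Quad, ranges that overlap, and went from between 8.23% and 8.70% in Ctrl-D to 3.63% and 3.64% in QuadD. The gene cas, which rose in RPKM in both, was at 9.76% to 12.7% in Ctrl and 8.71% to 10.1% in Quad, and at 9.57% to 10.2% in Ctrl-D and 7.27% to 8.57% in QuadD. The gene grh went from between 13.6% and 14.2% to between 2.75% and 2.81% in Quad, and from between 10.2% and 11.4% to between 1.82% and 2.09% in QuadD. Both POU genes, which rose in RPKM in Quad, were lower on this scale: nub went from between 4.98% and 5.02% to between 4.07% and 4.35%, and pdm2 from between 10.2% and 10.8% to between 8.05% and 9.45%. In QuadD nub went from between 4.65% and 5.71% to between 2.16% and 2.22%, and pdm2 from between 12.2% and 12.9% to between 5.26% and 5.54%. The share of svp went from between 4.83% and 5.06% to between 2.62% and 2.84% in Quad, and from between 3.71% and 3.74% to between 2.40% and 2.48% in QuadD. That of sqz went from between 3.03% and 3.20% to between 1.68% and 1.99%, and from between 2.45% and 2.63% to between 1.32% and 1.35%. The gene nab went from between 1.19% and 1.39% in Ctrl to between 0.518% and 0.662% in Quad, and was at 0.931% to 0.978% in Ctrl-D and 0.983% to 0.995% in QuadD. The marker sum itself was higher in both misexpression groups than in their controls. This sum leans on abundant markers, with mira alone at a mean of 552 RPKM in Quad and 685 RPKM in QuadD. It gives no level per neuroblast.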
